A study of Homo sapiens with 6 samples.

Results

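The mRNA of 10 receptor tyrosine kinases that are studied as drivers or drug targets in glioma was examined upon re-expression of CBX8 in CBX8 knockout glioblastoma cells. The 10 genes were picked by symbol, by a rule that uses no measured value but was set with earlier results of these data known, from the 57133 gene symbols in the deposited count table, and all 10 were found. They are the ERBB family members EGFR, ERBB2 and ERBB3, the platelet-derived growth factor (PDGF) receptors PDGFRA and PDGFRB, the hepatocyte growth factor (HGF) receptor MET, the GAS6 receptor AXL, the fibroblast growth factor receptor FGFR1, the insulin-like growth factor receptor IGF1R and the collagen receptor DDR2. RNA-seq was performed on T98G cells, an established human glioblastoma line, after knockout of CBX8 by CRISPR-Cas9. An empty vector inducible by doxycycline was present in 3 libraries (CBX8 KO), and in the other 3 this vector held V5-tagged WT CBX8 (WT CBX8 re-expression). All 6 libraries came from cells given doxycycline at 1 μg/ml for 72 h, and all carried the knockout, since no library of unedited T98G cells was analysed here. The genotype label of the re-expression libraries reads wild type, whereas their titles and the methods of the study describe re-expression in the knockout line, which was followed. Both lines were stable lines made by separate transduction and drug selection, and whether the knockout was 1 clone or a pool is not given in the sources used here.

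Receptor tyrosine kinases are single-pass membrane proteins that carry a ligand-binding part outside the cell and a kinase inside it. Ligand binding brings receptors together, they phosphorylate each other on tyrosine, and adaptors such as GRB2 then couple them to the RAS-ERK and PI3K-AKT pathways. Negative regulators such as the ubiquitin ligase CBL end the signal by sending receptors to the lysosome. In glioblastoma, EGFR and PDGFRA are frequently amplified, whereas AXL and MET are best known from cells in a mesenchymal state. CBX8 is a subunit of Polycomb repressive complex 1, which binds chromatin that carries H3K27me3 and represses transcription.

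Total counts per library lay between 7950190 and 8659796. CBX8 itself had 83 to 104 counts in the CBX8 KO libraries and 27791 to 31408 in the WT CBX8 re-expression libraries, so the level compared here is far above that of the knockout (log2 fold change 8.22, standard error 0.081). Averaged over all libraries, its level was above that of 99.7% of the genes tested. How the re-expressed level compares with that of unedited T98G cells is not known here, since no such library was analysed. Counts from the vector and from the endogenous gene cannot be told apart. Of 12 genes expected of a glial or mesenchymal glioblastoma line, 8 were tested. The summed level of all 12 was 6351 to 6670 CPM (the count scaled by the TMM-normalized size of its library) in CBX8 KO and 6161 to 6629 CPM upon re-expression. Of the 8, CD44, a hyaluronan receptor, fell (log2 fold change -0.21, edgeR adjusted p = 0.0097), and the matrix genes FN1 (0.22, adjusted p = 0.0031) and TNC (1.39, adjusted p = 7.2e-15) rose. VIM, CD44 and FN1 made up most of the sum, whereas NES had 0 to 4 counts per library and SOX2 and S100B had none. Of 16 markers of other cell types, 14 had at most 5 counts in every library.

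Upon WT CBX8 re-expression, AXL and MET rose, by 26.1% and 15.5%, and none of the other receptors passed the test in either direction. EGFR, ERBB2, PDGFRB, FGFR1, IGF1R and DDR2 were well measured, and their fold changes lay between 0.935 and 1.03. PDGFRA had 5 to 16 counts per library, and ERBB3, with 0 to 7, did not pass the filter on low counts. The test was the quasi-likelihood test of edgeR over all 14461 genes that passed the filter on low counts, with Benjamini-Hochberg adjustment and FDR < 0.05. Of the 10 receptors, 9 passed the filter, 2 were called higher and 0 lower. RNA was taken from whole cultures, so a change in the share of cells that express a gene and a change of mRNA per cell cannot be told apart. Over all genes tested, 6.23% were called higher and 6.63% lower, 12.9% in all. With scaling by library size alone, 1400 genes were called higher and 592 lower, in place of 901 and 959. The counts for the receptors were the same under that scaling.

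The promoters of AXL, MET and EGFR are shown because AXL and MET were the receptors that rose and EGFR is the most studied of those that did not pass the test. Each sequence is the 250 bases before the start site in RefSeq (GRCh38.p14), printed 5′ to 3′ on the strand of the gene, and each of the 3 start sites is also the start of the gene in GENCODE release 44. Capitals mark GGGCGG, the GC box bound by SP1, on either strand. The windows are chr19:41218973-41219222 (plus strand) for AXL, chr7:116671946-116672195 (plus strand) for MET and chr7:55018767-55019016 (plus strand) for EGFR.
AXL: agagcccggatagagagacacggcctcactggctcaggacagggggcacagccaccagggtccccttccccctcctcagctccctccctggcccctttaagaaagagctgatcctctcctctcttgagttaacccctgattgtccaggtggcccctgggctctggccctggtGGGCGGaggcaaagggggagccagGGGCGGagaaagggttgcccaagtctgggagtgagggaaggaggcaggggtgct
MET: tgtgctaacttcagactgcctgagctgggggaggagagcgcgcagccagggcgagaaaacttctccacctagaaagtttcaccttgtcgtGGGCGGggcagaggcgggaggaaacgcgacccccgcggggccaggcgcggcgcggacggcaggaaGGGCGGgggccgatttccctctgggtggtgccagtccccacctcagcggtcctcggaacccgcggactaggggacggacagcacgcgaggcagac
EGFR: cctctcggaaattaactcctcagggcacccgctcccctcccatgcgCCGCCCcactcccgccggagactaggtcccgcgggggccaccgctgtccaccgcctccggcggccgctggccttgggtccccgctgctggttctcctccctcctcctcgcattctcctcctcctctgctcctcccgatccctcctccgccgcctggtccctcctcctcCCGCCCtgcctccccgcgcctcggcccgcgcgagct
Each of the 3 windows held 2 GC boxes, a motif found in 42.6% of the 35116 RefSeq windows of this length. The letters TGANTCA, the AP-1 motif, and CATTCC, the TEAD motif, were in none of the 3 windows on either strand, and were found in 6.6% and 11.9% of all windows. The AXL window held 4 CpG, that of MET 24 and that of EGFR 25, where the median over all windows was 11. RefSeq also lists a start inside the gene for AXL, 7532 bases from the printed one, and for EGFR, 90822 bases from it. At that start the AXL window held 13 CpG, 1 TEAD motif and 0 GC boxes, and the EGFR window 1 CpG, 2 AP-1 motifs, 1 TEAD motif and 0 GC boxes. Counts per gene do not tell which start was used.

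AXL (ENSG00000167601.12, chromosome 19 from 41219223 to 41261766, plus strand) encodes a receptor of the TAM family, which is activated by GAS6. Its counts were 2982, 3043 and 2930 in CBX8 KO and 3713, 4193 and 4099 upon re-expression. On the CPM scale these levels were 376, 362 and 375 in CBX8 KO and 436, 479 and 488 upon re-expression. All 3 re-expression libraries lay above all 3 CBX8 KO libraries, with replicate 1 the lowest of them. Means (± SD, n = 3 each) were 371 ± 8.18 CPM without CBX8 and 468 ± 27.6 CPM with it. This is a log2 fold change of 0.33 (standard error 0.051, 95% interval 0.23 to 0.44, adjusted p = 3.3e-05 from edgeR). Among the 14461 genes tested, 90.2% had a lower log2 fold change, and AXL passed the threshold in every alternative fit, with log2 fold changes between 0.29 and 0.39.

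MET (ENSG00000105976.16, chromosome 7 from 116672196 to 116798377, plus strand) encodes the receptor for HGF. Its counts were 2432, 2549 and 2423 in CBX8 KO and 2768, 3214 and 3105 upon re-expression. Its levels were 307, 303 and 310 CPM in CBX8 KO and 325, 367 and 370 CPM upon re-expression. The conditions did not overlap for MET either, and re-expression replicate 1 was again the lowest of its condition, nearest to CBX8 KO. Means (± SD, n = 3 each) were 307 ± 3.63 CPM without CBX8 and 354 ± 24.9 CPM with it, a log2 fold change of 0.21 (standard error 0.052, 95% interval 0.10 to 0.31, edgeR adjusted p = 0.0074). Without WT CBX8 re-expression replicate 2 the log2 fold change of MET was 0.18 and the adjusted p was 0.065. It passed the threshold in all other alternative fits. AXL and MET were the 2 of the 9 tested receptors without overlap. Over all genes tested, conditions did not overlap for 28.9%, with the re-expression libraries above for 14.4% and below for 14.4%. For 3 libraries against 3, an exact permutation test of 1 gene (two-sided) cannot give a p below 0.1.

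**Figure D1:**
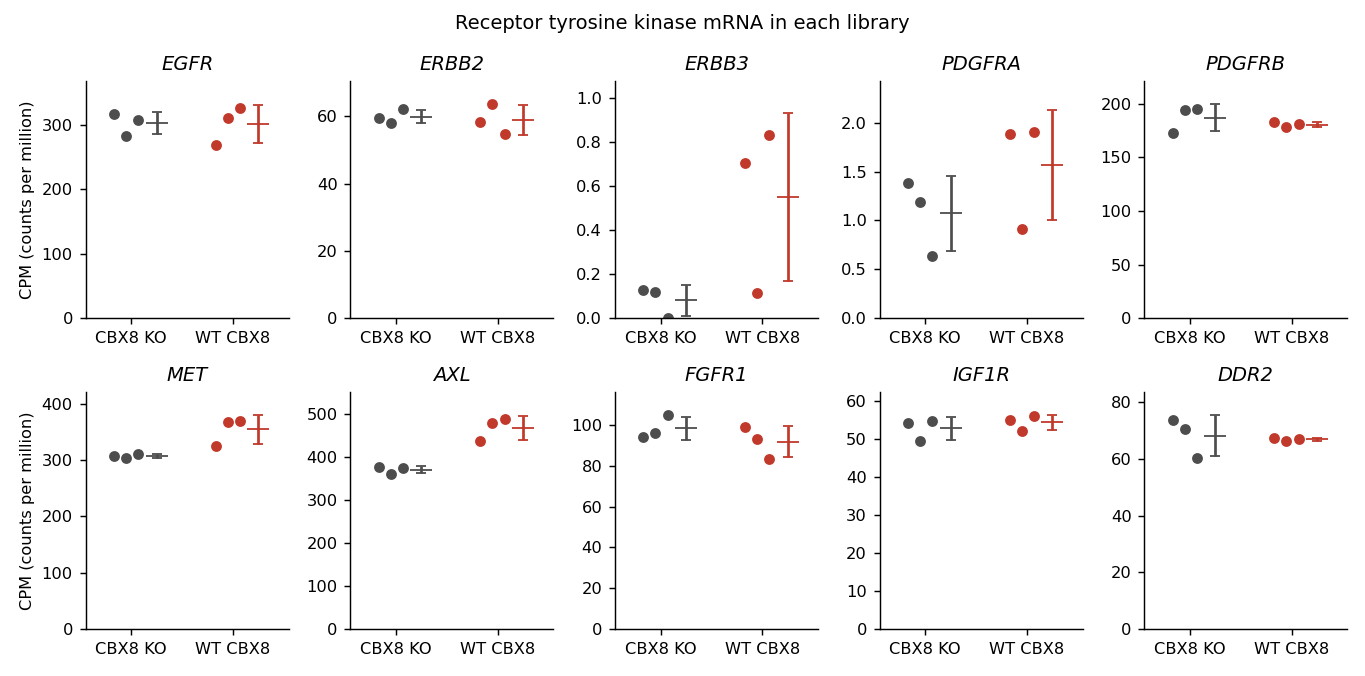
Level of each receptor in CPM (vertical axes, each starting at 0) in the 3 CBX8 KO libraries (grey) and the 3 WT CBX8 re-expression libraries (red). Points are libraries in the order of their replicate number, with the mean and SD beside them. AXL and MET are the panels in which the red points all lie above the grey points. Each panel has its own scale, and the highest levels were 0.833 CPM for ERBB3 and 1.9 CPM for PDGFRA.

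EGFR (ENSG00000146648.21, chromosome 7 from 55019017 to 55211628, plus strand), the receptor for EGF and HBEGF, did not pass the test. Its levels were 316, 283 and 307 CPM in CBX8 KO and 268, 310 and 326 CPM upon re-expression, and both the lowest and the highest value came from the re-expression libraries. Means (± SD, n = 3 each) were 302 ± 17.0 CPM without CBX8 and 301 ± 29.9 CPM with it. This gave a log2 fold change of -0.0031 with a 95% interval from -0.13 to 0.12 (standard error 0.060, edgeR adjusted p = 0.98). ERBB2, the ERBB member without a known ligand of its own, had levels of 59.6, 58.1 and 62.2 CPM in CBX8 KO and 58.2, 63.6 and 54.8 CPM upon re-expression. The conditions overlapped, and the log2 fold change of ERBB2 was -0.025 (95% interval -0.16 to 0.11, edgeR adjusted p = 0.86). On the opposite strand, exons of MIEN1 share 5.53% of the exon bases of ERBB2, and the strand setting of the counting is not given in the sources used here. ERBB3, which binds neuregulins but has little kinase activity, was almost absent. It had 1, 1 and 0 counts in CBX8 KO and 6, 1 and 7 upon re-expression, and was not tested. The summed counts, 2 and 14, give a ratio of 6.59 with a 95% exact interval of 1.51 to 59.7 that covers counting error only. Re-expression replicate 2 had the same count as 2 of the CBX8 KO libraries, and without the filter on low counts the edgeR adjusted p of ERBB3 was 0.10.

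PDGFRB (ENSG00000113721.14, chromosome 5 from 150113839 to 150155872, minus strand) was the PDGF receptor that these cells expressed. Its levels were 172, 194 and 195 CPM in CBX8 KO and 183, 178 and 181 CPM upon re-expression, so the re-expression libraries fell inside the range of CBX8 KO. For PDGFRB the log2 fold change was -0.052 (standard error 0.053, 95% interval -0.16 to 0.057, edgeR adjusted p = 0.60). With GC content and transcript length corrected for, it was -0.14 (edgeR adjusted p = 0.030), the setting in which PDGFRB was called lower. PDGFRA, the PDGF receptor of oligodendrocyte progenitors, had 11, 10 and 5 counts in CBX8 KO and 16, 8 and 16 upon re-expression. The conditions overlapped, and the log2 fold change of 0.53 had a 95% interval from -0.29 to 1.35 (edgeR adjusted p = 0.44), so a change in PDGFRA of the size seen in AXL was not detectable at this depth. Of the exon bases of PDGFRA, 16.1% are shared with a protein-coding gene annotated on the same strand.

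FGFR1 (ENSG00000077782.23, chromosome 8 from 38400215 to 38468834, minus strand), a receptor for FGF2, had levels of 94.3, 96.0 and 105 CPM in CBX8 KO and 99.0, 93.2 and 83.6 CPM upon re-expression. Replicate 3 was the highest of CBX8 KO and the lowest of re-expression, and the conditions overlapped. FGFR1 had a log2 fold change of -0.096 (95% interval -0.23 to 0.033, edgeR adjusted p = 0.36), and -0.17 after the correction for GC content and length (edgeR adjusted p = 0.041), where it was called lower. IGF1R (ENSG00000140443.15, chromosome 15 from 98648539 to 98964530, plus strand), the receptor for IGF1 and IGF2, had 54.3, 49.4 and 54.7 CPM in CBX8 KO and 55.1, 52.1 and 56.0 CPM upon re-expression. Its log2 fold change was 0.044 (95% interval -0.097 to 0.19, edgeR adjusted p = 0.75), and the conditions overlapped.

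DDR2 (ENSG00000162733.19, chromosome 1 from 162631373 to 162787405, plus strand), which is activated by fibrillar collagen, had 73.7, 70.7 and 60.2 CPM in CBX8 KO and 67.5, 66.1 and 66.9 CPM upon re-expression. CBX8 KO replicate 3 was below and the other CBX8 KO libraries above all re-expression libraries. DDR2 had a log2 fold change of -0.030 (95% interval -0.17 to 0.11, edgeR adjusted p = 0.84). For EGFR, ERBB2, PDGFRB, FGFR1, IGF1R and DDR2, the 95% intervals of the fold change reached from 0.855 to 1.14 at their outer ends. The upper bound of each of the 6 lay below the 1.26-fold estimate for AXL.

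**Figure D2:**
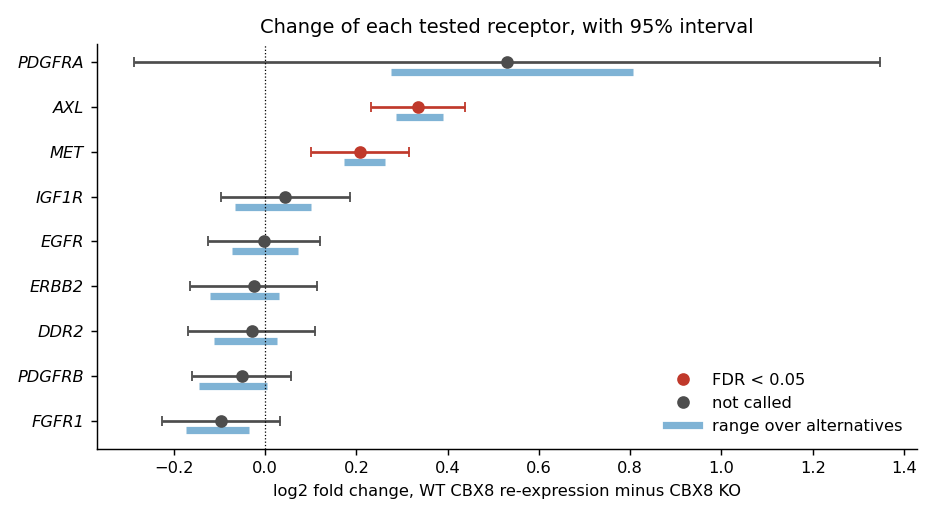
Log2 fold change of the 9 tested receptors (horizontal axis, WT CBX8 re-expression minus CBX8 KO) with its 95% interval from edgeR; red points passed FDR < 0.05 and grey points did not. Blue bars give the range of the estimate over 18 alternative fits. The intervals of AXL and MET lie above 0, and that of PDGFRA, with 5 to 16 counts per library, is the widest.

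Since scaling shifts all genes of a library together, counts of receptors were also compared within each library, a comparison chosen after the values were seen. AXL had 1.19, 1.28 and 1.22 counts per count of EGFR in CBX8 KO and 1.63, 1.55 and 1.497 upon re-expression. MET had 0.972, 1.07 and 1.01 counts per count of EGFR in CBX8 KO and 1.21, 1.19 and 1.13 upon re-expression. Both ratios were higher in all 3 re-expression libraries than in any CBX8 KO library. They are made from the same counts that gave the calls, so they are a description and no further test. Relative to PDGFRB, AXL again separated the conditions, whereas MET did not: it had 1.779, 1.56 and 1.59 counts per count of PDGFRB in CBX8 KO and 1.778, 2.06 and 2.05 upon re-expression. The ratio of AXL to MET also rose without overlap, from 1.21 ± 0.016 to 1.32 ± 0.018 (SD, n = 3 each). The ratio of EGFR to PDGFRB overlapped between conditions, at 1.62 ± 0.19 in CBX8 KO and 1.67 ± 0.18 upon re-expression (SD, n = 3 each). Re-expression replicate 1, the lowest of its condition for AXL and MET in CPM, was the highest of its condition for AXL/EGFR and MET/EGFR. EGFR was low in that library as well. Relative to the mean of its condition, that library was lower by 0.163 for EGFR, 0.119 for MET and 0.098 for AXL on the log2 scale.

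**Figure D3:**
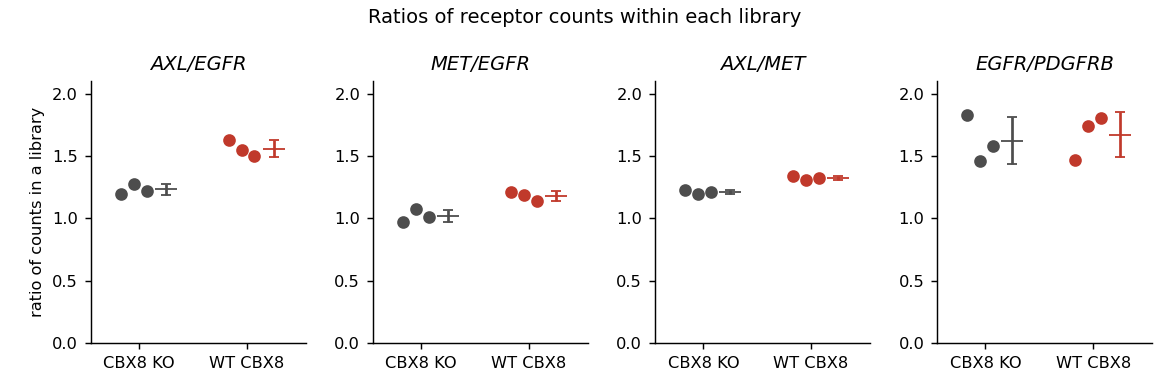
Ratios of receptor counts within each library (vertical axes, from 0, no unit) for CBX8 KO (grey) and WT CBX8 re-expression (red). Points are libraries in the order of their replicate number, with the mean and SD beside them. AXL/EGFR, MET/EGFR and AXL/MET were higher in each re-expression library than in any CBX8 KO library, and EGFR/PDGFRB overlapped.

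To compare levels between receptors, CPM was divided by the length of the canonical transcript in kilobases (RPKM). AXL had the highest level per length in both conditions, 78.6 ± 1.74 RPKM in CBX8 KO and 99.2 ± 5.84 RPKM upon re-expression (SD, n = 3 each). MET came next, at 45.0 ± 0.53 and 51.9 ± 3.65 RPKM (SD, n = 3 each). PDGFRB, at 32.8 ± 2.21 RPKM in CBX8 KO, and EGFR, at 30.5 ± 1.72 RPKM, followed and overlapped each other in both conditions. FGFR1 (17.3 RPKM in CBX8 KO), ERBB2 (13.2), DDR2 (6.76) and IGF1R (4.31) came below them, and each of these lay apart from its neighbours in every library. PDGFRA (0.168 RPKM) and ERBB3 (0.015 RPKM) were lowest, and overlapped upon re-expression. With the union of all annotated exons as the length, the order of AXL, MET, PDGFRB and EGFR was kept and PDGFRB lay apart from EGFR, but FGFR1 moved from place 5 to place 7, where it overlapped ERBB2. DDR2 moved from place 7 to place 5, and ERBB2 stayed at place 6.

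The 10 receptors together had 229 ± 4.11 RPKM in CBX8 KO and 254 ± 10.8 RPKM upon re-expression (SD, n = 3 each). The share of AXL in this sum was 34.4% ± 0.44 in CBX8 KO and 39.1% ± 0.67 upon re-expression (SD, n = 3 each). The share of MET was 19.7% ± 0.12 and 20.5% ± 0.58, and that of EGFR 13.3% ± 0.61 and 11.97% ± 0.71 (SD, n = 3 each). These shares depend on the length used. With the union of exons, the mean share of AXL was 39.8% in CBX8 KO and 44.3% upon re-expression. That of MET was then 23.4% and 23.8%, and that of EGFR 10.4% and 9.18%. At the level of mRNA per length, AXL and MET together made up more of the sum than the other 8 receptors in both conditions.

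**Figure D4:**
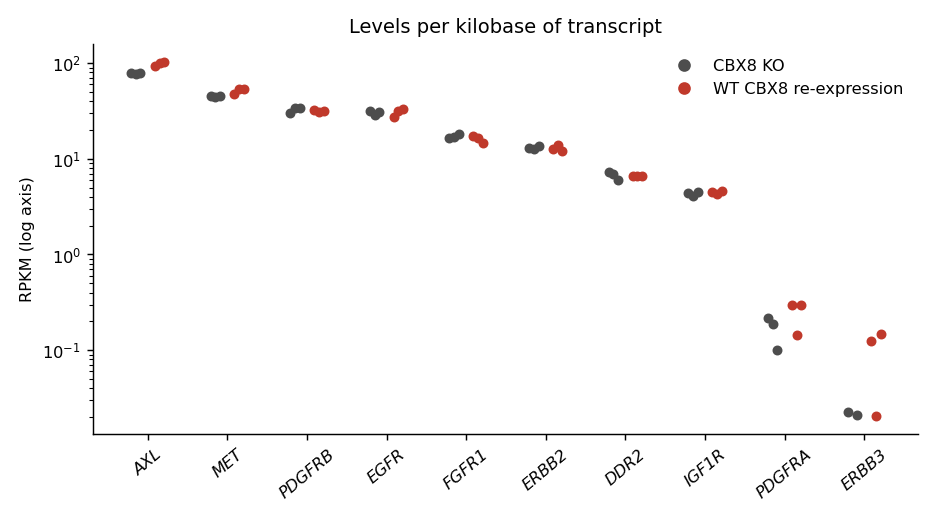
Level per length of the 10 receptors (RPKM on a log axis, canonical transcript length) in CBX8 KO (grey) and WT CBX8 re-expression (red). Each point is 1 library, and CBX8 KO replicate 3, which had 0 counts of ERBB3, is not drawn for that gene. AXL is highest at 78.6 RPKM (CBX8 KO mean), and PDGFRA and ERBB3 lie below 1 RPKM.

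A list of 34 genes for ligands of the 10 receptors, or of relatives in the same receptor families, was examined. Of these, 16 were tested, 6 rose, 1 fell and 9 did not pass the test (43.8% called, where 12.9% of all genes were), with a median log2 fold change of 0.14, where the median over all genes tested was 0.0049. GAS6, the ligand of AXL, rose from 13.1, 18.3 and 15.5 CPM in CBX8 KO to 25.7, 26.5 and 22.3 CPM upon re-expression (log2 fold change 0.66, standard error 0.12, edgeR adjusted p = 0.00021). HGF, the ligand of MET, had at most 2 counts in any library and was not tested.

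HBEGF, a ligand of EGFR that is shed from the membrane, rose from 21.5, 21.3 and 20.0 CPM to 31.6, 30.6 and 31.7 CPM (log2 fold change 0.58, edgeR adjusted p = 5.8e-05). EGF was low, between 6.79 and 8.80 CPM, and did not pass the test (log2 fold change 0.021, edgeR adjusted p = 0.96). NRG1, a ligand of ERBB3, was measured at 160 to 201 CPM although ERBB3 was nearly absent, and its log2 fold change of 0.14 did not pass the test (edgeR adjusted p = 0.11). NRG1 was called with library size scaling (adjusted p = 0.016) and without re-expression replicate 1 (0.039).

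Of the PDGF ligands, 1 fell and 1 rose. PDGFD, which binds PDGFRB, fell from 125, 124 and 117 CPM in CBX8 KO to 78.3, 75.6 and 84.3 CPM upon re-expression. This was a log2 fold change of -0.62 (edgeR adjusted p = 1.2e-08, standard error 0.057), with values between -0.67 and -0.57 in all alternative fits. PDGFB, which binds both PDGF receptors, rose from 3.41, 2.97 and 3.58 CPM to 7.88, 7.197 and 6.19 CPM (log2 fold change 1.09, standard error 0.20, edgeR adjusted p = 0.00031). PDGFA and PDGFC, which act mainly on PDGFRA, had log2 fold changes of 0.15 and 0.13 and did not pass the test (edgeR adjusted p = 0.45 and 0.44).

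FGF2, a ligand of FGFR1, rose from 126, 131 and 139 CPM to 146, 152 and 157 CPM, a log2 fold change of 0.20 (edgeR adjusted p = 0.012). Its call was lost in 4 of the 6 fits that left out 1 library: without CBX8 KO replicate 1 (edgeR adjusted p = 0.063), CBX8 KO replicate 2 (0.060), re-expression replicate 2 (0.055) and re-expression replicate 3 (0.059). IGF2, a ligand of IGF1R, rose from 4.92, 6.77 and 4.61 CPM to 7.76, 10.1 and 7.86 CPM (log2 fold change 0.65, edgeR adjusted p = 0.014). This call was lost with DESeq2 (adjusted p = 0.064) and without CBX8 KO replicate 1 (edgeR adjusted p = 0.072), CBX8 KO replicate 3 (0.072) or re-expression replicate 2 (0.12). COL1A1, a chain of the fibrillar collagen that DDR2 binds, rose from 11.1, 8.08 and 12.03 CPM to 20.0, 21.4 and 20.0 CPM (log2 fold change 0.98, standard error 0.13, edgeR adjusted p = 3.0e-06). The other chain of that collagen, COL1A2, had 512 to 544 CPM in CBX8 KO and 565 to 594 CPM upon re-expression, and did not pass the test (log2 fold change 0.11, edgeR adjusted p = 0.13, and 0.019 with library size only).

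The other human receptor tyrosine kinases were described in the same way. Of 48 listed, 21 were tested, 6 rose, 3 fell and 12 did not pass (42.9% called, where 12.9% of all genes were). The median log2 fold change was 0.16, where that over all genes tested was 0.0049. Only 1 of the 6 higher calls passed at FDR < 0.01, and the number of higher calls lay between 1 and 6 over the alternative fits. That 1 was EPHA2, an ephrin-A receptor, which rose from 155, 157 and 164 CPM to 178, 197 and 201 CPM (log2 fold change 0.28, edgeR adjusted p = 0.00068) and stayed called in every alternative fit. EPHB2, an ephrin-B receptor, had a log2 fold change of 0.17 (edgeR adjusted p = 0.031), which became 0.033 after the correction for GC content and length (adjusted p = 0.73), and lost its call in 11 of 18 alternative fits. TYRO3, a TAM receptor like AXL, rose from 26.3, 27.8 and 30.7 CPM to 32.2, 38.3 and 35.8 CPM (log2 fold change 0.33, edgeR adjusted p = 0.019). TYRO3 lost its call in 7 of 18 alternative fits, with adjusted p-values up to 0.10, which it reached without re-expression replicate 2. MERTK, the other TAM receptor, had 1 to 8 counts per library and was not tested.

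STYK1, a receptor-like kinase (log2 fold change 0.88, edgeR adjusted p = 0.031), and LTK, a relative of ALK (0.57, adjusted p = 0.035), were called higher at means of at most 7.33 CPM. STYK1 lost its call in 8 and LTK in 7 of 18 alternative fits. EPHB3, the remaining higher call, had a log2 fold change of 0.59 (edgeR adjusted p = 0.042) and lost its call in 9 of 18 alternative fits, with adjusted p-values up to 0.27, reached without re-expression replicate 1.

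The receptors that fell were EPHA4, ROR1 and NTRK3. EPHA4, an ephrin receptor, fell from 126, 123 and 105 CPM to 100.3, 90.1 and 102 CPM (log2 fold change -0.28, edgeR adjusted p = 0.0037, and 0.055 without re-expression replicate 2). ROR1, a WNT5A receptor, fell from 18.8, 19.4 and 17.8 CPM to 13.4, 13.8 and 14.8 CPM (log2 fold change -0.42, edgeR adjusted p = 0.0093, and 0.056 with DESeq2). NTRK3, the receptor for neurotrophin-3, fell from 4.17, 2.85 and 3.58 CPM to 1.18, 1.49 and 2.50 CPM (log2 fold change -1.03, edgeR adjusted p = 0.019). The call of NTRK3 was lost with DESeq2 (adjusted p = 0.071) and without CBX8 KO replicate 1 (edgeR adjusted p = 0.10), re-expression replicate 1 (0.094) or re-expression replicate 2 (0.086). DDR1, the relative of DDR2, was listed with 0 to 1 counts, and its transcript matches 4 alternate contigs of hg38 over at least 95% of its bases, so its count is uncertain.

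Of 38 adaptors and proximal effectors, 33 were tested, 2 rose and 0 fell (6.06% called, where 12.9% of all genes were). The median log2 fold change was 0.022, where that over all genes tested was 0.0049. FYN, a kinase of the SRC family, rose from 1.14, 2.26 and 1.54 CPM to 3.996, 3.66 and 3.10 CPM (log2 fold change 1.11, edgeR adjusted p = 0.0096, and 0.064 without CBX8 KO replicate 1). PIK3CD, the catalytic subunit delta of PI3K, rose from 13.5, 10.6 and 12.8 CPM to 19.9, 16.2 and 14.6 CPM (log2 fold change 0.46, edgeR adjusted p = 0.016). PIK3CD lost its call with DESeq2 (adjusted p = 0.068) and without CBX8 KO replicate 2 (edgeR adjusted p = 0.12) or re-expression replicate 1 (0.13). After the correction for GC content and length, 4 genes of this list were called lower, and lower calls over all genes rose from 959 to 1357. HRAS had 2 to 55 counts per library and a near-identical copy on 1 alternate contig, so its count is uncertain.

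Of 28 negative regulators of receptor signalling, 25 were tested, 2 rose and 3 fell (20.0% called, where 12.9% of all genes were), with a median log2 fold change of 0.077. With library size scaling, 6 of them were called higher and 1 lower. CBL, the ubiquitin ligase that acts on EGFR, MET and PDGF receptors, rose from 114, 105 and 111 CPM to 121, 148 and 151 CPM (log2 fold change 0.35, standard error 0.067, edgeR adjusted p = 0.00072). As for AXL and MET, re-expression replicate 1 was the lowest of its condition for CBL. SPRY1, a Sprouty inhibitor of the ERK pathway, fell from 10.9, 9.39 and 9.47 CPM to 5.99, 5.26 and 6.07 CPM (log2 fold change -0.78, standard error 0.15, edgeR adjusted p = 0.00084). Both CBL and SPRY1 kept their calls in every alternative fit. ERRFI1, an inhibitor of the EGFR kinase, had a log2 fold change of -0.14 (edgeR adjusted p = 0.048) and lost its call in 12 of 18 alternative fits. SOCS3, a suppressor of cytokine signalling (0.28, edgeR adjusted p = 0.021), and LGALS3BP, a secreted glycoprotein (-0.18, adjusted p = 0.016), lost theirs in 6 and 4. PTPRK had the lowest log2 fold change of the list (-0.92, edgeR adjusted p = 0.43). It had 1 to 88 counts per library and a near-identical copy on 1 alternate contig, so its count is uncertain.

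Of 24 genes for chaperones, sheddases and endocytic sorting, all 24 were tested, 1 rose and 0 fell (4.17% called, where 12.9% of all genes were), with a median log2 fold change of 0.0070. Lower calls numbered 2 once GC content and length were corrected for, where those over all genes rose from 959 to 1357. This list had 1 lower call with DESeq2, with voom and without CBX8 KO replicate 3. EPN2, an epsin of clathrin-coated pits, rose from 13.9, 15.2 and 11.5 CPM to 20.8, 21.3 and 19.4 CPM (log2 fold change 0.59, standard error 0.11, edgeR adjusted p = 0.00063).

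**Figure D5:**
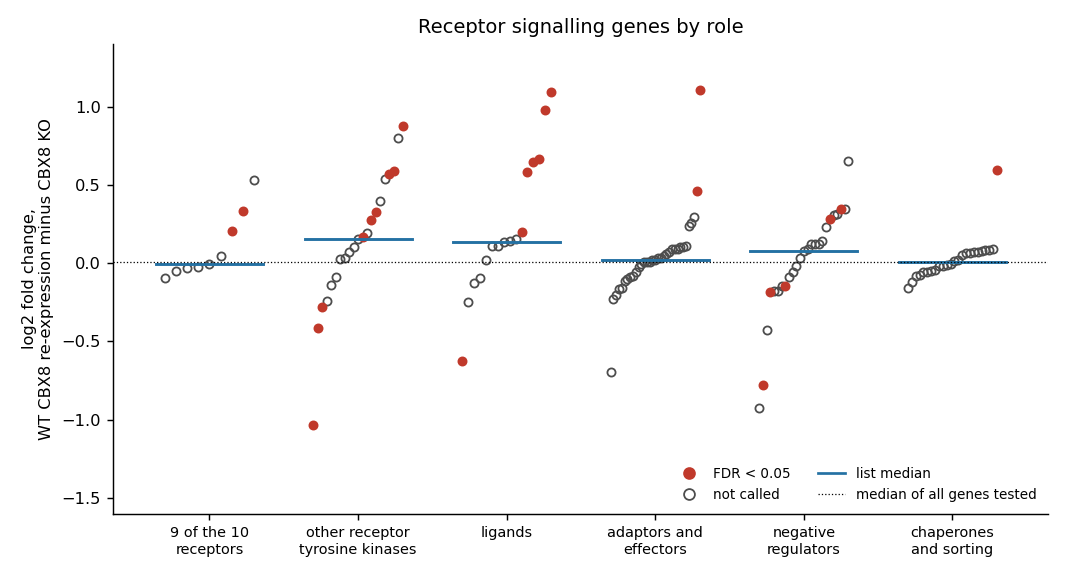
Log2 fold change of tested genes (vertical axis, WT CBX8 re-expression minus CBX8 KO) by role: 9 of the 10 receptors, 21 other receptor tyrosine kinases, 16 ligands, 33 adaptors and effectors, 25 negative regulators and 24 genes of chaperones and sorting. Each point is 1 gene, red where FDR < 0.05, blue lines are list medians and the dotted line is the median of all genes tested. Red points are 7 of 16 for ligands and 2 of 33 for adaptors, where 12.9% of all genes tested were called.

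Among the 13587 genes compared (log2 CPM of 1 or more on average), the profiles over the 6 libraries most like that of AXL were those of KANK2, CHST3 and ZFHX4, with Pearson r of 0.995, 0.992 and 0.992 on log2 CPM. Their log2 fold changes were 0.19, 0.41 and 0.45 (edgeR adjusted p = 0.012, 0.0020 and 9.5e-05). These correlations describe 6 libraries in 2 conditions, and any gene that rose with the same order of libraries has a high value.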

How the data were processed

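For 6 poly(A) RNA-seq libraries, a table of unnormalized counts by gene symbol was deposited by the authors. Per the labels and the methods of the study, adapters were trimmed with Trimmomatic and paired-end reads were aligned to hg38 with HISAT2. How reads were assigned to genes (program, annotation, strand) and the versions used are not given in the sources used here, which leaves counts of overlapping genes uncertain. The labels number the libraries but do not say whether they come from separate cultures, so each SD and p-value measures spread between libraries.

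With edgeR 4.0.16 in R 4.3.3, the 14461 genes that passed filterByExpr were scaled by TMM and tested by glmQLFit and glmQLFTest with condition as the only term and Benjamini-Hochberg adjustment. Standard errors were derived from the F statistic as |log2 fold change| / sqrt(F). Counts simulated from these libraries were used to test the procedure. The 10 receptors and the gene lists were chosen with earlier results of these data known. Named genes were all receptors, up to 8 called genes per list and the 12 most abundant tested ligands. The 3 profiles most like that of AXL were also named. EPHB3, HGF, MERTK, DDR1, HRAS and PTPRK were added after their values were seen. Lists were described by counts and medians.

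Alternative fits used scaling by RLE, by the upper quartile or by library size, DESeq2 1.42.0, voom of limma 3.58.1, edgeR's exact test, legacy set to FALSE, 2 other filters, FDR < 0.01, the replicate number as a block, correction for the GC content and length of transcripts (available for 87.8% of tested genes and all 10 receptors) and each library left out in turn. Positions and lengths are from GENCODE release 44. Copies on alternate contigs were sought with minimap2 at 95% of transcript bases. Promoter windows from RefSeq were found for 8 of the 10 receptors. Protein sequences were not used here. No 2 libraries of a condition agreed within counting noise (chi-square per degree of freedom 2.03 to 3.07), so none was treated as a repeat deposit of another.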

Additional observations from a re-analysis of the deposited data

How the results depend on the processing

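AXL kept its direction and its call in all 18 alternative fits, with edgeR adjusted p-values up to 0.00099 when 1 library was left out. The number of receptors called higher was 2 and became 1 without WT CBX8 re-expression replicate 2, the fit in which MET was not called, so it ranged from 1 to 2 over the fits that left out 1 library. The number of receptors called lower was 0 and became 2 with the GC content and length correction (PDGFRB and FGFR1). Over all genes, that correction gave 1357 lower calls in place of 959, and 816 higher calls in place of 901. The cause was not tested. At an unadjusted p under 0.05, 0 receptors were lower, and DESeq2 and voom also called 0 lower.

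Over all genes, library size scaling gave 592 lower and 1400 higher, FDR < 0.01 gave 569 and 489, and DESeq2 gave 502 higher. With library size scaling, the median log2 fold change over all genes tested was 0.060, where that of the main fit was 0.0049. The stricter threshold lowers the counts by construction, and for the others the cause was not tested. With 1 library left out, lower calls ranged from 635 to 851 and higher calls from 593 to 792, both lowest without WT CBX8 re-expression replicate 2.

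Reversals of direction concerned changes near 0. The log2 fold change of EGFR became 0.0096 with upper quartile scaling and 0.052 with library size scaling, and lay between -0.066 and 0.072 with 1 library left out. With library size scaling, those of ERBB2, PDGFRB and DDR2 became 0.030, 0.0035 and 0.026. With 1 library left out, ERBB2 lay between -0.085 and 0.021, DDR2 between -0.11 and 0.027, IGF1R between -0.0030 and 0.075 and EGF between -0.11 and 0.082. IGF1R became -0.067 after the GC content and length correction. For the 28 named ligands, other receptors and regulators, 422 of 504 fits kept direction and side of the threshold, 77 lost a call, 3 gained one and 2 reversed. The 77 include calls that FDR < 0.01 removes by construction.

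With the replicate number as a block, 2 receptors were called higher (AXL, adjusted p = 0.00037, and MET, 0.020) and 0 lower, and over all genes 739 were higher and 766 lower. The calls of EPHB2, STYK1 and ERRFI1 were lost under the block (adjusted p = 0.065, 0.052 and 0.10). Same-numbered libraries showed no joint deviation (correlations of -0.109, -0.058 and -0.058 over 13491 genes), so the numbers were not taken to pair them. Depth limits PDGFRA and ERBB3, which had at most 16 and 7 counts per library.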
